A study of Saccharomyces cerevisiae with 4 samples.

Results

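The 4 genes SPT16, POB3, NHP6A and NHP6B encode the budding yeast histone chaperone FACT and the small HMG-box proteins that work with it. Spt16 and Pob3 form the FACT heterodimer, which loosens and rebuilds nucleosomes as polymerases pass. Nhp6A and Nhp6B, a paralogous pair, each carry a single HMG box that bends DNA. In yeast they supply the DNA-bending activity that animal FACT carries inside one of its own subunits, SSRP1. Acetylation of lysine 16 of histone H4 (H4K16ac) removes a positive charge from the H4 tail and is a mark of open chromatin.

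H4K16ac was measured by ChIP-seq in Saccharomyces cerevisiae labelled WT and in cells labelled nhp6ab, both growing exponentially in YPD, a rich glucose medium. The labels name 2 replicates per genotype, 4 libraries in all, but each genotype has a single table of read counts over called nucleosomes. The spread between replicates is therefore unknown, no test between genotypes was possible, and all intervals printed here cover counting error only. The labels give neither the structure of the mutant alleles nor the strain background, and nhp6ab stands here for the table so labelled. The members are all listed nucleosomes whose midpoint lay from 1000 bp before to 1000 bp after one of the 4 open reading frames (ORFs). They number 74 of 60557 in WT and 71 of 57674 in nhp6ab. SPT16 holds 26 in each table, POB3 22 in WT and 20 in nhp6ab, NHP6A 13 and 12, and NHP6B 13 and 13.

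The WT table sums to 26526939 counts, with a median of 442 per nucleosome. The nhp6ab table sums to 20293261 counts, with a median of 354. Member nucleosomes held 184 to 693 counts in WT and 125 to 457 in nhp6ab, so the counting error of a single one was between 3.80% and 8.94%. A level is a count divided by the median of its own table. A ratio is the log2 of the nhp6ab count over the WT count after scaling to the table totals, with an exact conditional binomial 95% interval. An interval missing from a table has no known count, which need not be 0. Each sum therefore also moves with the number of nucleosomes listed, and the ratio of mean counts per listed nucleosome is given beside sums that rest on unequal numbers. The 4 genes lie on chromosomes VII, XIII, XVI and II, whose median ratios of paired nucleosomes lay between 0.01 and 0.03.

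In WT the 4 ORFs differed in how much H4K16ac they carried, and NHP6A stood highest. Per 100 bp of listed nucleosome, NHP6A held 423 counts (95% counting interval 389 to 458), above 97.9% of 5879 measured genes, of which 5654 are protein-coding and 225 are of other kinds, such as noncoding RNA genes. NHP6B held 290 (271 to 310), POB3 276 (268 to 284) and SPT16 203 (197 to 208), against a median of 310 over these genes. NHP6B and POB3 could not be ordered within counting error, and SPT16 lay below both. The NHP6A value rests on 1 nucleosome. By level per listed nucleosome, NHP6A ranked at percentile 83.6 of 1237 genes with a WT nucleosome number within 2 of its own. In the nhp6ab table the same 4 ORFs lay close together. POB3 held 183 counts per 100 bp (176 to 191), NHP6B 176 (162 to 191), SPT16 167 (162 to 172) and NHP6A 165 (145 to 186), against a median of 252 over all genes. Only the intervals of POB3 and SPT16 did not overlap. All 4 lay in the lower part of that table, at percentiles 14.3, 12.7, 10.6 and 10.1 in the same order. By level per listed nucleosome among genes of similar nucleosome number, the percentiles were 10.3, 24.5, 4.98 and 27.2. How low NHP6B and NHP6A stood thus depended on the genes compared.

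**Figure D1:**
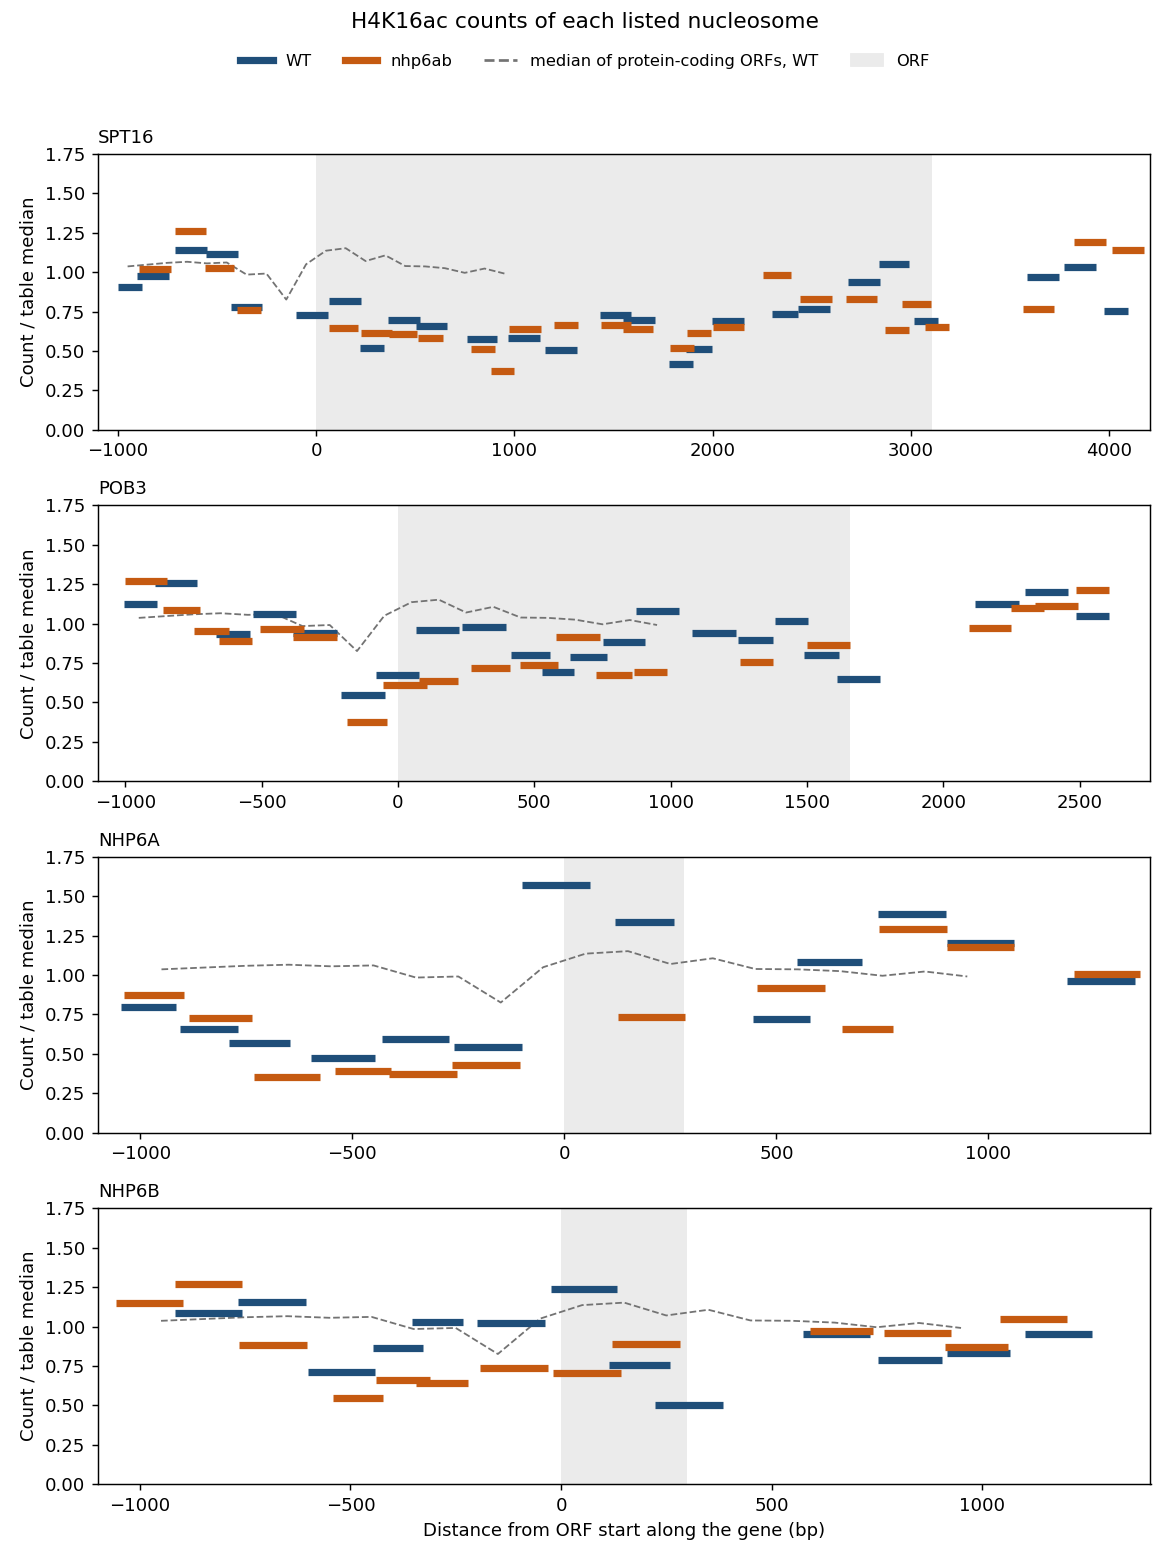
Level of every listed nucleosome (count divided by the table median) against the distance of its position from the ORF start, read along the gene, for WT (blue) and nhp6ab (orange). Each bar spans 1 nucleosome, grey shading is the ORF, and the dashed line is the WT median over all protein-coding ORFs up to 1000 bp from the start. The WT nucleosome over the NHP6A start stands at 1.57 and has no nhp6ab counterpart.

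NHP6A (YPR052C, chromosome XVI, 665693 to 665974, minus strand, R64) carried less of the H4K16ac counts in its ORF and over its start in the table labelled nhp6ab, and still had a listed nucleosome inside the ORF. It is 1 of the 2 genes that the mutant label names. The WT table lists 1 nucleosome with its midpoint in this 282 bp ORF, at 665715 to 665855, with 592 counts and a level of 1.34. Its nhp6ab counterpart, at 665690 to 665848, held 260 counts and a level of 0.73. The ratio was −0.80 (−1.02 to −0.59), or 57.4% of the expectation after scaling. Among all 51169 nucleosome pairs of the genome this ratio ranked at percentile 1.35, and at percentile 0.59 of pairs 100 to 200 bp inside ORFs. As an ORF ratio it ranked at percentile 2.21 of all genes and 8.16 of 1237 genes of similar nucleosome number. Reads thus remained over NHP6A in the table labelled nhp6ab, and every direction given here is that of the tables as labelled.

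The NHP6A start itself was marked by a strong nucleosome in WT that had no counterpart. At 665914 to 666074, from 100 bp before the start to 60 bp inside the ORF, the WT table listed 693 counts. That is a level of 1.57, above 98.0% of WT nucleosomes and the highest count of all members. In nhp6ab no nucleosome was listed between 665848 and 666078. This gap of 230 bp spans the start, from 104 bp before it to 126 bp inside. Of all steps between neighbouring nhp6ab nucleosomes, 6.95% were at least as long. Because this WT nucleosome has its midpoint 20 bp outside the ORF, the ORF ratio depends on how it is counted. Counting every nucleosome that touches the ORF gave −1.92, or −0.92 by the mean of 2 WT and 1 nhp6ab nucleosomes, and sharing counts by base pairs gave −1.35.

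Farther upstream of NHP6A the levels were low in both tables, and 1 of 5 pairs was lower in nhp6ab beyond counting error. The next 3 WT nucleosomes, centred 181, 351 and 522 bp before the start, held 240, 264 and 210 counts, at levels of 0.54, 0.60 and 0.48. Their nhp6ab partners held 151, 132 and 139 counts, at levels of 0.43, 0.37 and 0.39. The pair at 351 bp had a ratio of −0.61 (−0.93 to −0.31), while the intervals of the pairs at 181 and 522 bp included 0. The 2 farthest pairs, at 838 and 981 bp, went the other way. Their WT levels were 0.66 and 0.80 and their nhp6ab levels 0.73 and 0.88, with a ratio of 0.20 in both cases and intervals that included 0. An nhp6ab nucleosome without a partner, at 666551 to 666707, held 125 counts and the lowest level of the members, 0.35. Most of this stretch is the 5′ part of the divergent gene SMK1, a sporulation-specific MAP kinase gene. Over the whole SMK1 ORF the ratio was −0.05 (−0.14 to 0.03), with 8 nucleosomes in each table. Nearer to NHP6A, the overlapping ORF YPR053C held 933 WT counts from 2 nucleosomes and 151 nhp6ab counts from 1. One of those 2 WT nucleosomes is the one over the NHP6A start.

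On the downstream side, NHP6A showed no such deficit. The ratio of the 1000 bp after the ORF was −0.02 (−0.11 to 0.07), with 5 nucleosomes in each table. These lie mostly over MAK3, the gene of the catalytic subunit of the NatC N-terminal acetyltransferase, whose ORF ratio was −0.06 (−0.15 to 0.04). The nucleosomes at 665074 in WT and 665073 in nhp6ab held 614 and 457 counts, a ratio of −0.04. In the 1000 bp before the ORF, 7 WT nucleosomes held 2303 counts and 6 nhp6ab nucleosomes 1114, which gave −0.66 (−0.77 to −0.56), and −0.44 per listed nucleosome. The WT nucleosome over the start supplied 693 of these counts, and without it the ratio was −0.14 (−0.26 to −0.03), with 6 nucleosomes in each table. The whole window of NHP6A stood at −0.35 (−0.41 to −0.28), percentile 5.33 of 6288 gene windows, or −0.23 by the mean. With 500 bp on each side it stood at −0.67, from 6 nucleosomes in each table.

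NHP6B (YBR089C-A, chromosome II, 426190 to 426489, minus strand), the other gene named in the mutant label, showed a lower level from its 5′ part into upstream sequence and a higher one in its 3′ part. The WT nucleosome at 426355 to 426513, centred 55 bp inside the ORF, held 547 counts and a level of 1.24. Its nhp6ab partner at 426347 to 426507 held 250 counts and a level of 0.71. The ratio of −0.74 (−0.96 to −0.52) ranked at percentile 1.61 of all pairs and at 1.16 of pairs within 100 bp inside ORF starts. The next nucleosome in the 300 bp ORF was higher in nhp6ab after scaling, with 335 counts in WT and 314 in nhp6ab, a ratio of 0.29 (0.07 to 0.52). The ORF sum was 882 counts in WT and 564 in nhp6ab, a ratio of −0.26 (−0.41 to −0.10). Counting every nucleosome that touches the ORF gave −0.58, or 0.00 (−0.15 to 0.15) by the mean of 3 WT and 2 nhp6ab nucleosomes, and counting those wholly inside left the 3′ pair alone and gave 0.29.

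The lower pairs of NHP6B formed an unbroken run of 6, from 55 bp inside the ORF to 686 bp before it. Upstream of the first pair, the WT counts were 453, 455, 381, 315 and 510 and the nhp6ab counts 260, 228, 234, 193 and 313. The 5 ratios were −0.41, −0.61, −0.32, −0.32 and −0.32. Among pairs in the same 100 bp step before ORF starts, they ranked at percentiles 15.0, 6.94, 23.6, 17.5 and 15.9. All 6 intervals lay below 0. Of all pairs of the genome, 0.860% belonged to a run of at least 6 such pairs, in 63 runs. This run was chosen after its values were seen, so its rarity is a description. It covers the overlapping ORF YBR090C, whose ratio was −0.50 (−0.60 to −0.39) with 5 nucleosomes in each table. The run ended over the 3′ end of TIM12, a gene of the mitochondrial inner-membrane import machinery. Inside TIM12, the nucleosome at 427246 to 427406, listed at the same position in both tables, held 481 and 449 counts, a ratio of 0.29 (0.10 to 0.48).

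Downstream of NHP6B the levels were similar or higher in nhp6ab. The 3 pairs there had ratios of 0.09, 0.35 and 0.13, and the interval of the middle one alone lay above 0. The first of them spans the start of POL30, the gene of the replication clamp PCNA, and the other two lie inside its 5′ part. Over the whole POL30 ORF the ratio was 0.24 (0.14 to 0.33). The window of NHP6B as a whole stood at 0.00 (−0.06 to 0.05), at percentile 56.8 of gene windows, but this value rests on its edge. The nhp6ab nucleosome at 427387 to 427547, with 407 counts, has its midpoint inside the window, while its WT partner, which starts at 427411 and holds 431 counts, has it outside. Counting every nucleosome that touches the window gave −0.10 (−0.16 to −0.05), and counting those wholly inside gave −0.16 (−0.22 to −0.10). By the mean these were −0.01 and −0.04, with intervals that included 0. Between 425914 and 426105 in WT, and between 425898 and 426207 in nhp6ab, no nucleosome was listed. These gaps of 191 and 309 bp lie between NHP6B and POL30, and the nhp6ab one reaches just into the 3′ end of NHP6B. The WT nucleosome at 426105 to 426265, with 223 counts and a level of 0.50, had no partner in nhp6ab. Because NHP6A and NHP6B are paralogs with similar coding sequences, reads that match both could be placed at either. How the authors treated such reads is not given in the sources used here, and the part of misplaced reads in the counts over these ORFs was not tested.

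**Figure D2:**
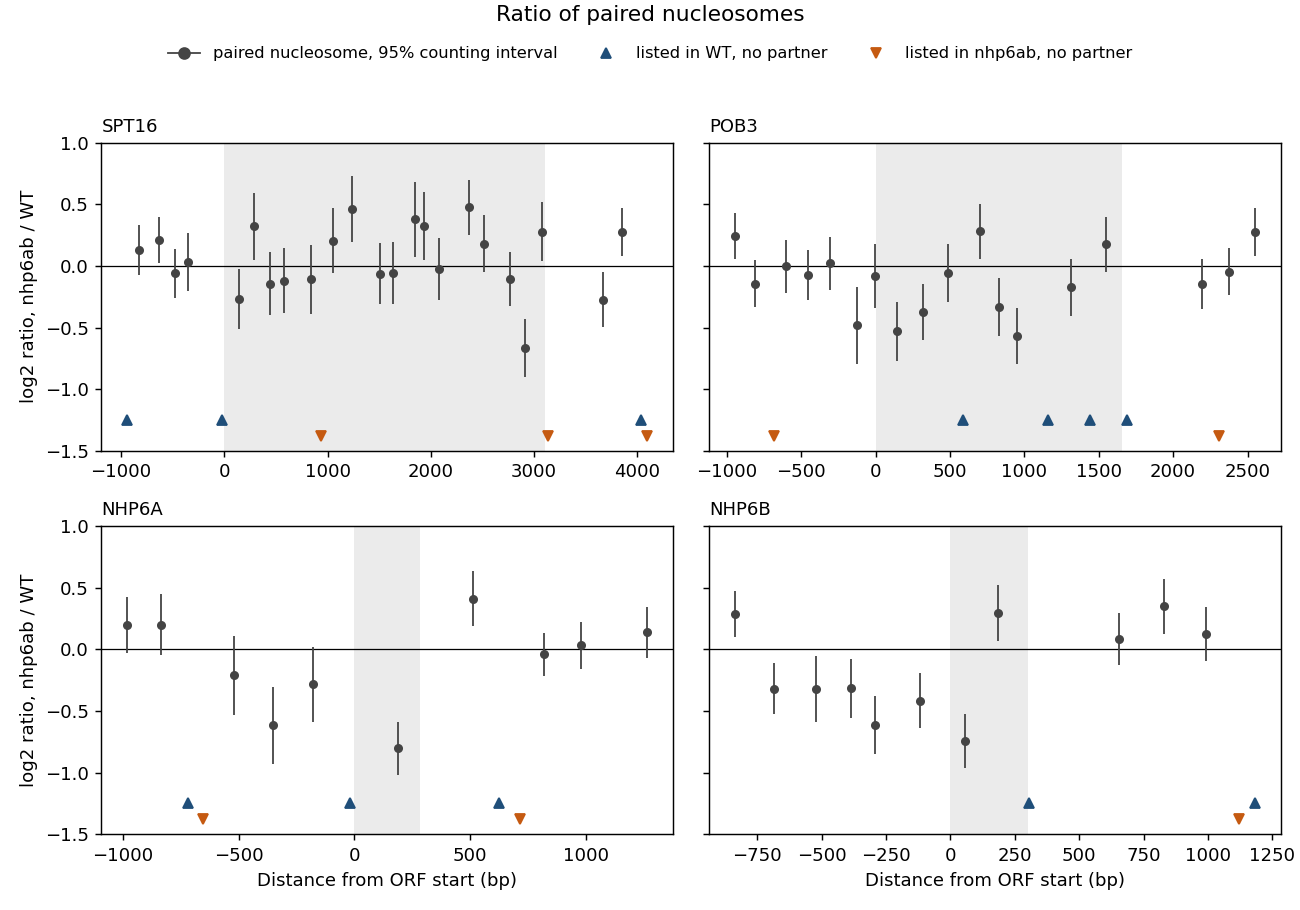
Log2 ratio of nhp6ab to WT for each paired nucleosome (points, with 95% counting intervals) against distance from the ORF start, with the ORF shaded. Triangles mark nucleosomes listed in a single table; at NHP6A and NHP6B the lowest points, −0.80 and −0.74, lie inside the 2 ORFs named by the mutant label.

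POB3 (YML069W, chromosome XIII, 135500 to 137158, plus strand), the gene of the smaller FACT subunit, was lower in nhp6ab by the sum over its ORF. Both flanking genes were not lower by the sum. Of the 8 ORF pairs of POB3, 6 were below 0. The 11 WT nucleosomes of the ORF held 4347 counts and the 9 of nhp6ab 2338, a ratio of −0.51 (−0.58 to −0.44), or 70.3% of expectation. That is percentile 5.26 of all genes and 1.47 of 1358 genes of similar nucleosome number. The mean per listed nucleosome gave −0.22, at percentile 8.64, and the difference between −0.51 and −0.22 goes with the smaller number of nucleosomes listed. DAK1, the dihydroxyacetone kinase gene upstream, stood at 0.21 (0.16 to 0.26), or −0.03 by the mean. ITT1, a modulator of translation termination downstream, stood at 0.25 (0.18 to 0.31), or 0.09 by the mean. The POB3 window with both flanks was at −0.16 (−0.21 to −0.11) by the sum and at −0.02 (−0.07 to 0.03) by the mean. With flanks of 500 bp the same values were −0.56 and −0.15.

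At POB3 the lower nucleosomes lay on either side of the start and near the middle. The nucleosome 127 bp before the start held 241 counts in WT and 132 in nhp6ab, a ratio of −0.48 (−0.80 to −0.17), at levels of 0.55 and 0.37. The pair over the start itself held 298 and 216 counts, a ratio of −0.08 (−0.34 to 0.18). The first pair inside the ORF, at 135565 to 135725 in WT, held 424 and 225 counts, a ratio of −0.53 (−0.77 to −0.29). The second held 432 and 255, a ratio of −0.37 (−0.60 to −0.15). Levels of the first 3 WT nucleosomes inside the ORF averaged 0.91, and those of their nhp6ab partners 0.70. Around 950 bp the counts were 477 and 246, a ratio of −0.57 (−0.80 to −0.34), the lowest of POB3. A single pair of the ORF, around 700 bp, was higher in nhp6ab beyond counting error, at 0.28 (0.06 to 0.51). Toward the 3′ end, the pairs at 1311 and 1552 bp had ratios of −0.17 (−0.40 to 0.05) and 0.18 (−0.05 to 0.40).

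From 587 bp inside POB3 to its 3′ end, 4 WT nucleosomes had no nhp6ab partner within 50 bp. Those at 136027 to 136147, 136579 to 136739 and 136881 to 137003 lie in the ORF and held 306, 416 and 450 counts. The last, at 137109 to 137269, lies across the 3′ end and held 286. In nhp6ab no nucleosome was listed from 136485 to 136754, a gap of 269 bp inside the ORF, where WT gaps stayed under 100 bp. Positions also differed more: paired midpoints of POB3 differed by a median of 24 bp, against 11 bp over all pairs of the genome. Between 136130 and 136532 the nhp6ab partners lay 27 to 39 bp closer to the start, so these pairs need not be the same nucleosome. Past the 3′ end both tables had a long gap, of 348 bp in WT and 437 bp in nhp6ab.

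SPT16 (YGL207W, chromosome VII, 98969 to 102076, plus strand), the gene of the larger FACT subunit, carried little H4K16ac over its ORF in both tables. The ORF differed little between them. Over the ORF, 17 WT nucleosomes held 5116 counts and 18 nhp6ab nucleosomes 4175. Their mean levels were 0.68 and 0.66, at percentiles 6.28 and 4.98 of 461 genes of similar nucleosome number. The ratio was 0.09 (0.03 to 0.15) by the sum and 0.01 by the mean. Of the 17 ORF pairs, 9 were below 0. The window with both flanks stood at 0.04 (−0.01 to 0.08). Of its 23 pairs, the interval lay above 0 for 8 (34.8%, against 28.1% of all pairs) and below 0 for 3 (13.0%, against 18.2%). The window value joins flank sums of opposite sign. The 1000 bp before the ORF stood at −0.41 (−0.50 to −0.31), from 6 WT and 4 nhp6ab nucleosomes. The 1000 bp after it stood at 0.51 (0.40 to 0.62), from 3 and 4. By the mean these were 0.18 and 0.10.

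In WT no nucleosome of SPT16 had a level above 0.81 from the start to 2511 bp inside the ORF. There the first 3 nucleosomes inside the ORF held 360, 228 and 309 counts, at a mean level of 0.68. The WT median over all protein-coding ORFs in the same 500 bp ran from 1.04 to 1.15. The lowest WT level of all members, 0.42 with 184 counts, lay 1842 bp inside SPT16. Its nhp6ab partner held 183 counts, a level of 0.52. Toward the 3′ end the WT levels were 0.94 and 1.05, with 414 and 464 counts at 2763 and 2916 bp. The pair at 2916 bp held 464 and 224 counts and had the only ratio of SPT16 that was at least 1.5-fold lower, −0.66 (−0.90 to −0.43). The next pair, at 101985 to 102105 in WT and 101926 to 102068 in nhp6ab, held 305 and 283 counts, a ratio of 0.28 (0.04 to 0.52), with midpoints 48 bp apart. The nhp6ab table also lists a nucleosome without a partner across the 3′ end, at 102041 to 102161, with 231 counts. Farther upstream in the ORF the largest ratio was 0.48 (0.25 to 0.70), at 2367 bp, with 326 and 347 counts.

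Before SPT16, the nucleosome over the start was listed in WT only, as at NHP6A. Over all protein-coding ORFs, 2340 WT and 1946 nhp6ab nucleosomes had midpoints in the 100 bp before a start. In the first 100 bp inside, the numbers were 3387 and 3518. The share of all ORFs with a start nucleosome in WT only was not computed. The SPT16 start therefore cannot be called unusual. This SPT16 nucleosome lay at 98867 to 99027, with 322 counts and a level of 0.73. In nhp6ab the gap from 98694 to 99033 measured 339 bp, and the corresponding WT gap, from 98696 to 98867, measured 171 bp. Steps of at least 339 bp made up 3.50% of all steps in the nhp6ab table. The other upstream nucleosomes lie mostly over SIP2, a gene of a regulatory subunit of the Snf1 kinase, and their 4 pairs had ratios between −0.06 and 0.21. Downstream, over the end of the clathrin heavy chain gene CHC1, the 2 pairs had ratios of −0.27 and 0.27. The ORF ratios of SIP2 and CHC1 were −0.22 and −0.09 by the sum and −0.06 and 0.16 by the mean, so no direction can be given for CHC1. SIP2, with 9 WT and 8 nhp6ab nucleosomes, was lower by the sum, and no interval was computed for its mean.

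Counted over all 4 genes with scaling to table totals, pairs at least 1.5-fold lower made up a larger share than in the genome. No pair was higher by that much. Of 62 pairs, 5 were at least 1.5-fold lower in nhp6ab, or 8.06%, against 2.90% of all pairs. None was at least 1.5-fold higher, against 4.52% of all pairs, and none passed 2-fold in either direction, against 0.758% lower and 0.321% higher. With chromosome XII left out of the totals, 3 pairs were at least 1.5-fold lower, and with scaling to the median count 7 were. The shares of all pairs under these other scalings were not computed, so no comparison with the genome can be made there. Both NHP6 genes held 2 of the 5 each and SPT16 the other. The interval lay below 0 for 16 pairs (25.8%, against 18.2% of all pairs) and above 0 for 15 (24.2%, against 28.1%). NHP6B contributed 6 of the 16 and POB3 5, and SPT16 contributed 8 of the 15. Neighbouring pairs share chromatin and, where nucleosomes overlap, reads, so these counts are not independent. Nucleosomes without a partner were as frequent as elsewhere, at 16.2% of the WT members against 15.5% of the table and 11.3% of the nhp6ab members against 11.3%. The first pair inside each of the 4 ORFs, by the WT midpoint, was below 0, with ratios of −0.80 at NHP6A, −0.74 at NHP6B, −0.53 at POB3 and −0.27 (−0.51 to −0.02) at SPT16. The medians of all pairs in the first 200 bp of ORFs were −0.01 and 0.01. By the nhp6ab midpoint, the first pair of POB3 would be the one over its start, at −0.08 (−0.34 to 0.18). This comparison was not planned, and the share of such first pairs below 0 over all genes was not computed.

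As whole ORFs counted by midpoint, none of the 4 genes passed 2-fold in either direction, against 1.17% of all genes lower and 0.544% higher. By the same counting NHP6A alone was at least 1.5-fold lower, where 4.15% of all genes were, and none was 1.5-fold higher, where 3.38% were. These calls depend on the counting. With every nucleosome that touches the ORF, NHP6A was past 2-fold lower, where 1.44% of genes were, and POB3, at −0.69, past 1.5-fold lower, where 4.54% were. POB3 was also past 1.5-fold lower with nucleosomes wholly inside the ORF, at −0.65, and with counts shared by base pairs, at −0.63. NHP6A was past 2-fold lower by base pairs, at −1.35. The shares of all genes past these thresholds were not computed for wholly-inside or base-pair counting, so how unusual these values are is unknown. By the mean per nucleosome POB3 stood at −0.16 with any overlap and −0.19 wholly inside, short of 1.5-fold. As windows with 1000 bp on each side, none passed 2-fold, against 0.302% of gene windows lower and 0.143% higher. From 500 bp before the ORF to its end, 1 of 4, NHP6A, was 2-fold lower, against 1.08% of all genes lower and 0.326% higher. Its ratio of −1.005 (−1.13 to −0.88) lay at the threshold, and with chromosome XII left out of the totals it was −0.97 and no longer past it. With 4 nucleosomes in each table, that region held 1789 counts in WT and 682 in nhp6ab, but the sets do not match. The WT set includes the nucleosome over the start. The nhp6ab set includes one centred 475 bp before it, with 139 counts, whose WT partner at 522 bp, with 210, lies outside. Over the 3 pairs of this region alone, without these unmatched nucleosomes, the ratio was −0.63 (−0.78 to −0.48). For all 4 in each table, the level per nucleosome of this region was 1.01 and 0.48, at percentiles 46.7 and 4.32 of 6135 genes. For NHP6B the same region rested on 5 and 6 nucleosomes, and its level was 0.98 in WT and 0.70 in nhp6ab.

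**Figure D3:**
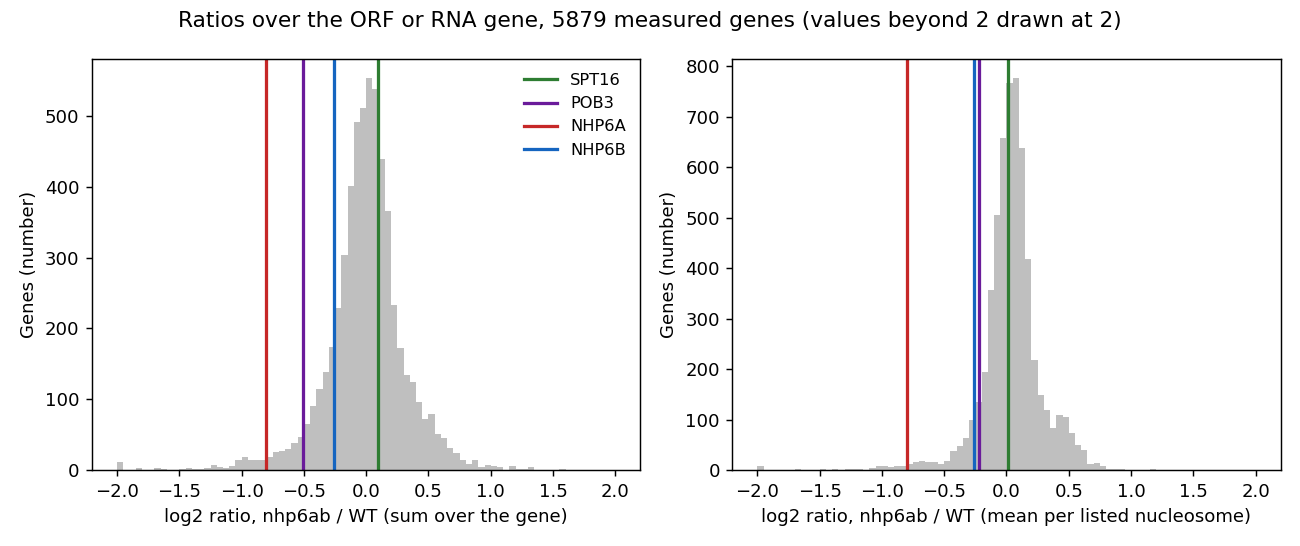
Distribution of the log2 ratio of nhp6ab to WT over 5879 measured genes, by summed counts (left) and by the mean count per listed nucleosome (right), with the 4 genes as coloured lines. NHP6A lies lowest in both, at −0.80, and POB3 moves from −0.51 to −0.22 between the panels.

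Other histone chaperones and transcription elongation factors of the Spt group were listed for comparison, and none of the 17 passed 2-fold. Their median ratio from 500 bp before the ORF to its end was −0.09, against −0.02 over all 6135 measured genes. The interval lay below 0 for 9 of 17 (52.9%, against 40.3% of all genes) and above 0 for 2 (11.8%, against 31.1%). By the mean per nucleosome the list median was 0.00, and that of all genes 0.03. Lowest were HIR1, of the HIR histone chaperone complex, at −0.37 (−0.41 to −0.32), and SPT6, an elongation factor that binds histones, at −0.31 (−0.35 to −0.26). By the mean these were at 0.08 and −0.02. Highest were HIR2, another HIR subunit gene, at 0.27 (0.23 to 0.32) and MSI1, of the CAF-1 chaperone, at 0.16 (0.10 to 0.22). By the mean these were at 0.10 and 0.02, and the highest of the list was 0.14, at CHZ1, the gene of a chaperone for the histone variant H2A.Z, named after its value was seen.

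The 5 other HMG-box genes lay between 0.08 and 0.22 by summed counts, and none passed 2-fold. HMO1, a chromatin protein of ribosomal genes, stood at 0.08 (0.01 to 0.15), and IXR1, a DNA-binding regulator, at 0.09 (0.03 to 0.14). ABF2, which packages mitochondrial DNA, stood at 0.14 (0.05 to 0.22). NHP10, of the INO80 remodelling complex, was at 0.15 (0.07 to 0.24), and ROX1, the repressor of hypoxic genes, at 0.22 (0.15 to 0.30). All 5 intervals lay above 0, as did those of 31.1% of all genes. By the mean per nucleosome IXR1, ABF2 and NHP10 were at −0.11, −0.12 and −0.17 and ROX1 at 0.05, so no direction can be given for this group.

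**Figure D4:**
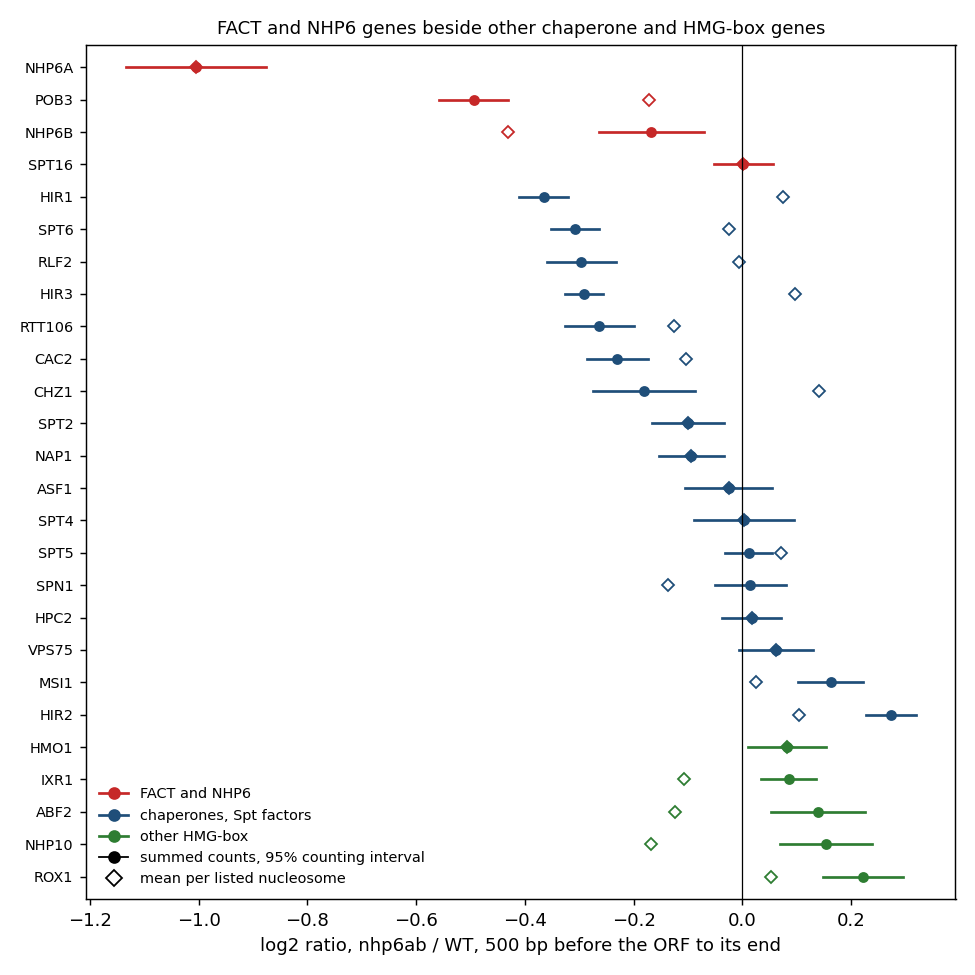
Log2 ratio of nhp6ab to WT from 500 bp before the ORF to its end, for the 4 genes (red), 17 histone chaperone and Spt factor genes (blue) and 5 other HMG-box genes (green). Filled points are ratios of summed counts with 95% counting intervals and open diamonds ratios of the mean per listed nucleosome; NHP6A, at −1.005, lies lowest by both.

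By the levels of their ORFs in the 2 tables, each gene had near neighbours among genes of similar nucleosome number. NHP6A, at 1.34 and 0.73, was nearest to YCL042W, at 1.36 and 0.76, and to YJR146W, at 1.33 and 0.77. NHP6B, at 1.00 and 0.80, was nearest to SNR10, a snoRNA gene, at 1.00 and 0.81, and to YGL088W, which overlaps SNR10, also at 1.00 and 0.81. POB3, at 0.89 and 0.73, was nearest to YAP1802, at 0.89 and 0.73, and to LCB1, at 0.90 and 0.74. SPT16, at 0.68 and 0.66, was nearest to MPT5, at 0.68 and 0.64, and to BAS1, at 0.70 and 0.68. With 2 values per gene, this likeness describes levels only.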

How the data were processed

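Per the labels' protocols, chromatin was cross-linked, sonicated and isolated with an antibody against H4K16ac. The submitters' processing notes name FastQC, Bowtie and build R64. The caller of the nucleosomes, and whether replicates were pooled before it, is not given in the sources used here. The authors deposited 1 table per genotype, with whole-number read counts per nucleosome that are not normalized, per the file headers and their values. Without an input library, counts also reflect chromatin recovery and mapping. Coordinates are as in the tables, whose base convention is not given. Genes came from a RefSeq table of assembly R64, with 6419 genes, noncoding RNA genes included and measured over their annotated length, and strand from the systematic name.

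Counts were summed by midpoint and scaled to table totals with Python 3.11.15, numpy 2.4.6, pandas 2.3.3 and scipy 1.17.1. Genes needed 100 counts over both tables, pairs 10. Pairs were nearest midpoints within 50 bp, one to one. With 1 column per genotype, ratios with counting intervals took the place of a test; amplified reads carry no molecular identifiers, so these cover counting error only. Percentiles are shares of genes or pairs with a lower value. The scripts were tested on simulated data. Named genes were the 4 members, the genes overlapping their windows, the 2 highest and 2 lowest chaperone genes, the HMG-box genes, and for each member the 2 genes nearest in level, with a nucleosome number in WT within 2. Members and lists were chosen with earlier results of these data known. Alternatives changed scaling, membership, flanks, pairing distance, a count filter and the use of means.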

Additional observations from a re-analysis of the deposited data

How the results depend on the processing

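The 4 genes were recomputed under other settings, planned with the design. Scaling to the median count per nucleosome lowered every ratio by a constant, a shift of −0.07, and leaving chromosome XII out of the totals raised it by 0.04. With the first, the windows stood at −0.0270 (SPT16), −0.225 (POB3), −0.414 (NHP6A) and −0.0709 (NHP6B), and the SPT16 ORF at 0.0271. By the mean per listed nucleosome, the windows of POB3 and NHP6A were at −0.0214 and −0.23, and the ORFs of SPT16 and POB3 at 0.0108 and −0.22. The chaperone list median became 0.00366 and that of the HMG-box genes −0.11. Counting any overlap gave windows of −0.0249 (SPT16) and −0.10 (NHP6B), and ORFs of −0.69 (POB3), −1.92 (NHP6A) and −0.58 (NHP6B). Counting nucleosomes wholly inside gave windows of −0.0472 (SPT16), −0.46 (NHP6A) and −0.16 (NHP6B), and ORFs of 0.18 (SPT16), −0.65 (POB3) and 0.29 (NHP6B). The last turned the direction of a ratio whose interval excluded 0, since 1 pair was left. Values whose interval included 0, or that have none, also changed sign, namely the SPT16 and NHP6B windows and both list medians. No nhp6ab nucleosome lies wholly inside the NHP6A ORF, so that setting gave no value there. Flanks of 500 bp gave −0.56 (POB3), −0.67 (NHP6A) and −0.24 (NHP6B). Sharing counts by base pairs gave ORFs of −0.63 (POB3) and −1.35 (NHP6A). Other settings were chosen after seeing the data. The mean over nucleosomes that touch the ORF gave 0.00485 (SPT16), −0.16 (POB3), −0.92 (NHP6A) and 0.00114 (NHP6B), the last a second change of direction, and the mean with flanks of 500 bp gave −0.67 (NHP6A) and −0.24 (NHP6B). Without the WT nucleosome over its start, NHP6A stood at −0.14 upstream. Of the member pairs, 3 instead of 5 were at least 1.5-fold lower without chromosome XII in the totals, and 1 instead of 0 at least 1.5-fold higher with pairing within 80 bp. Of 80 recomputed values, 44 stayed within the counting interval, or within 1.5 times for a count. The ratio of NHP6A was below 0 in all settings that gave one, for window and ORF, as was that of POB3. For the POB3 window by the mean, however, the interval included 0. It was −0.07 to 0.03 by midpoint, −0.06 to 0.03 with any overlap and −0.09 to 0.01 wholly inside. Causes of these shifts beyond the construction of each setting were not tested.

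No paired analysis was possible because each genotype has a single column of counts; for the same reason leaving out a replicate was not run. Depth limits single nucleosomes: at these counts a pair's interval typically reached 0.23 to either side, and smaller ratios were mostly not detectable.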
